A study of Mus musculus with 6 samples.

Results

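The acute phase and fibrinogen genes described here are 10 genes taken by symbol from an expression table of 22183 mouse genes: the serum amyloid A genes Saa1, Saa2 and Saa3, haptoglobin (Hp), hemopexin (Hpx), ceruloplasmin (Cp), leucine-rich alpha-2 glycoprotein (Lrg1) and the 3 fibrinogen chains (Fga, Fgb and Fgg). All 10 had a row in the table, and 8 passed the filter on low counts. Kidney RNA was sequenced in 6 libraries from mice. The 3 control libraries had the genotype label control and came from mice given the empty vector pcDNA3, and the 3 Wnt1 libraries came from mice labelled as overexpressing the ligand gene Wnt1 after receiving its plasmid. The series title concerns how acute kidney injury progresses to the chronic disease. The sources used here do not state an injury procedure, the strain, sex or age, the time after the plasmid or the promoter it carries, and all 6 libraries have the same batch label. Replicate numbers only name libraries, and the labels do not say whether the numbers in the library titles stand for animals. The p-values therefore reflect the spread among these libraries alone, and it is not stated whether that spread is biological.

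Acute phase proteins are plasma proteins whose synthesis rises in inflammation, mostly in the hepatocyte, after interleukin-6 and interleukin-1 have activated STAT3, C/EBP and NF-kappaB factors. Fibrinogen is a plasma protein built from pairs of alpha, beta and gamma chains, encoded by Fga, Fgb and Fgg, and thrombin turns it into the fibrin of a clot. Several of these genes are also known to be transcribed outside the liver, in epithelium, macrophages, neutrophils or fat.

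Total counts per library lay between 23585020 and 27218085. Wnt1 (chromosome 15, 98789857 to 98793837) had a single read in Wnt1 replicate 2 and no read in the other 5 libraries, so the labels could not be checked by it. The libraries numbered 3 in both groups stood apart from the other 4 on the second principal component, which held 14.7% of the variance. Scaling by TMM factors, which correct for composition, centred the 14432 tested genes near 0 (median log2 fold change 0.05), while library totals moved that median to 0.47 and the calls from 3239 higher and 2697 lower to 6348 higher and 1288 lower. In this bulk tissue, a change in the number of cells of a type and a change in RNA per cell cannot be told apart.

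Ceruloplasmin, Lrg1 and all 3 fibrinogen chains were higher with the Wnt1 plasmid. These 5 genes had enough reads in the control libraries alone to pass the filter, and all 5 were called higher, where 22.4% of all tested genes were called higher, 18.7% lower and 41.1% in either direction. A gene was called at an edgeR adjusted p under 0.05. The other 3 tested genes, Saa1, Saa3 and Hp, were called higher too, but they passed the filter only through the Wnt1 libraries, which fixed their direction. Their values are therefore descriptions of each gene and are not counted with the 5. The counts and medians of the other lists below were not split in this way. They include genes that passed the filter through a single group, whose direction the filter fixed. The shares of all tested genes given here are the background for those counts too. Log2 fold changes (Wnt1 over control) ran from 2.0 for Fga to 4.0 for Fgb among the 5 genes. The groups did not overlap for any of these 5, and they did not overlap in this direction for 28.2% of all tested genes. Saa2 and Hpx were too low to test and had 0 to 2 reads in each control library.

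**Figure D1:**
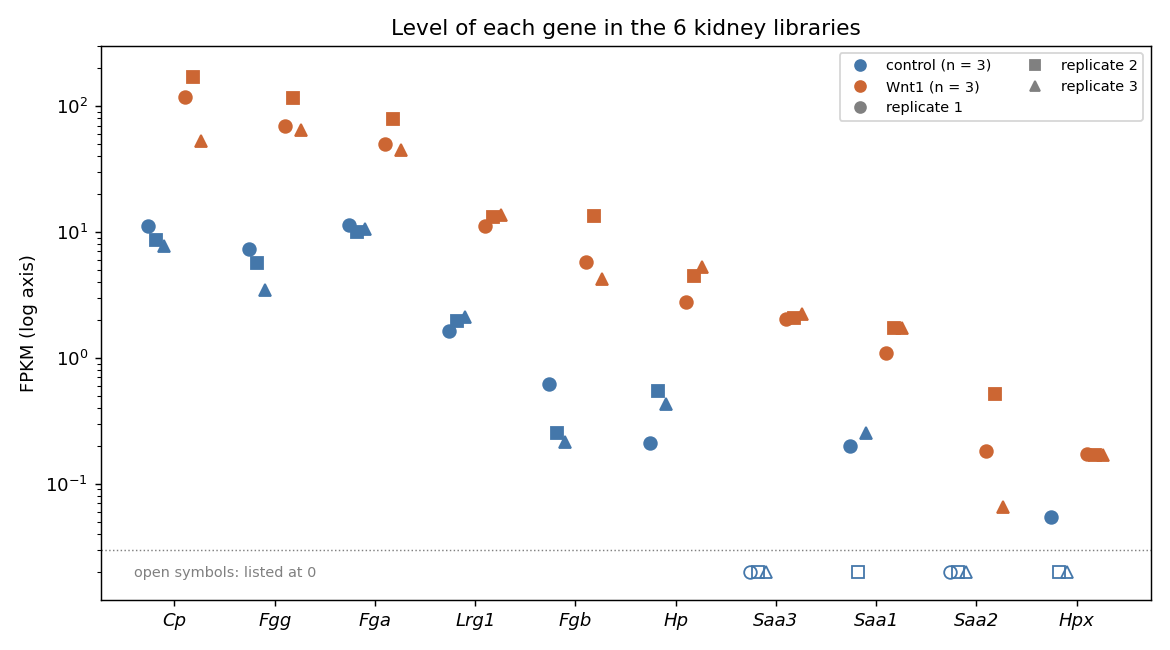
FPKM of each gene in each library (log axis; blue, control; orange, Wnt1; symbol shape, replicate number; open symbols, listed at 0). For Cp, Lrg1, Fga, Fgb and Fgg the 3 Wnt1 libraries lie above the 3 control libraries, and the genes span from 0.170 FPKM for Hpx to 114 FPKM for Cp as Wnt1 group means.

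FPKM, which divides by transcript length, allows levels to be set side by side between genes. In control kidneys Fga led at 10.7 ± 0.700 FPKM (SD, n = 3), followed by Cp at 9.16 ± 1.84, Fgg at 5.45 ± 1.94 and Lrg1 at 1.90 ± 0.246. Fga and Cp overlapped between libraries. Hp (0.395 ± 0.169) and Fgb (0.360 ± 0.222) also overlapped, Saa1 (0.151 ± 0.134) overlapped both, and Hpx was above 0 in 1 library. With the Wnt1 plasmid the order was Cp (114 ± 59.0 FPKM), Fgg (82.9 ± 28.1), Fga (57.8 ± 18.5), Lrg1 (12.7 ± 1.41), Fgb (7.76 ± 4.86), Hp (4.17 ± 1.26), Saa3 (2.11 ± 0.0930), Saa1 (1.52 ± 0.376), Saa2 (0.255 ± 0.236) and Hpx (0.170 ± 0.00153). Neighbours from Cp to Fga overlapped there, as did Lrg1 with Fgb, Fgb with Hp, and Saa2 with Hpx. The FPKM of Fgb divides by a length of about 3810 bases, as its counts and FPKM together imply, while its longest coding sequence is 1443 bases. For Cp the implied length varied between libraries, from 2948 to 3866 bases. The place of Cp beside Fga and Fgg therefore depends in part on that length.

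The 3 fibrinogen genes lie together on chromosome 3 of GRCm38, with Fgg at 83007724 to 83015049 and Fga at 83026076 to 83033627 on the plus strand and Fgb at 83040141 to 83049863 on the minus strand. The whole cluster spans 42.1 kb. The 250 bases before each RefSeq start (build GRCm38.p6) are shown because the 3 genes rose together. Capitals mark matches, on either strand, to CTGGGAA (the core of the interleukin-6 response element), TTCNNNGAA (a STAT site) or TTGCNNAA (a C/EBP site).
Fga (chr3:83025903-83026152, plus strand): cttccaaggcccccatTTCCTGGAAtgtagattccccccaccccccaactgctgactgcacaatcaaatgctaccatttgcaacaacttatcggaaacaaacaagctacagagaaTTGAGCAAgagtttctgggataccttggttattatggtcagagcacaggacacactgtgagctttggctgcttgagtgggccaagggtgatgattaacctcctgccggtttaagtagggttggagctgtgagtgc
Fgb (chr3:83049864-83050113, minus strand): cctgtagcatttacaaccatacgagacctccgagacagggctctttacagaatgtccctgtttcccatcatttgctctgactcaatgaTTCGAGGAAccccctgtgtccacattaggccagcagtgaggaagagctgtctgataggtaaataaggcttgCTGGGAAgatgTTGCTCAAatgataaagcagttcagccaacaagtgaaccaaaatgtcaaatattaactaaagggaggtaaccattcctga
Fgg (chr3:83007474-83007723, plus strand): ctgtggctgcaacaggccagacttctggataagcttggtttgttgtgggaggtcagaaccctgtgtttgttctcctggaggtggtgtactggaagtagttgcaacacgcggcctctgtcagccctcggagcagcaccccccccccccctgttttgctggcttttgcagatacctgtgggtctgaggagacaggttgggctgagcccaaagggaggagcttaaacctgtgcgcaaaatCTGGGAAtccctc

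Fgb held all 3 motifs, with the CTGGGAA match beginning 91 bases and the TTGCNNAA match 80 bases before the start. Fga held the STAT and C/EBP letters (234 and 135 bases before the start) and Fgg held CTGGGAA 13 bases before it. Of 32851 RefSeq windows of this length, 9.10% hold CTGGGAA, 7.02% TTCNNNGAA and 9.56% TTGCNNAA. A match is a description of letters and does not show that a factor binds there. RefSeq windows were found for 9 of the 10 genes, in 10 windows since Cp has a pair of starts. Of these 10 windows, 7 held TTGCNNAA (Cp, Fga, Fgb, Hpx, Saa1, Saa2 and Saa3), 3 held CTGGGAA (Fgb, Fgg and Lrg1) and 2 held TTCNNNGAA (Fga and Fgb). The NF-kappaB letters, GGGNN followed by TTTCC (1.41% of all windows), were in none of the 10.

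Fibrinogen transcripts rose for all 3 chains, by different amounts. Levels within a gene are given as CPM, counts scaled to library size with TMM factors. Fga (ENSMUSG00000028001), the alpha chain, was measured at 27.4, 24.4 and 26.4 CPM in control replicates 1, 2 and 3 and at 89.7, 139 and 84.0 CPM in Wnt1 replicates 1, 2 and 3. The control libraries lay close together, and Wnt1 replicate 2 was the highest. Fga rose by 2.0 ± 0.21 on the log2 scale (± SE; edgeR adjusted p = 0.000259), the smallest change of the 8 tested genes. Of all tested genes, 6.90% had a larger log2 fold change.

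Fgg (ENSMUSG00000033860), the gamma chain, was at 14.1, 11.1 and 6.89 CPM in control replicates 1, 2 and 3 and at 101, 164 and 98.0 CPM in Wnt1 replicates 1, 2 and 3. Control replicate 3 was the lowest and Wnt1 replicate 2 again the highest. Its log2 fold change was 3.50 ± 0.32 (edgeR adjusted p = 0.000187), an 11.3-fold rise.

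Fgb (ENSMUSG00000033831), the beta chain, was at 2.67, 1.11 and 0.959 CPM in control replicates 1, 2 and 3 and at 19.0, 42.4 and 14.3 CPM in Wnt1 replicates 1, 2 and 3. Control replicate 1 stood above the other controls, and Wnt1 replicate 2 above the other Wnt1 libraries. The log2 fold change was 4.0 ± 0.55 (edgeR adjusted p = 0.00104), and it was 4.69 without control replicate 1 and 3.40 without Wnt1 replicate 2. Among tested genes, 1.08% had a larger log2 fold change.

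The ratios between the chains were set beside each other, and no test of them could pass the threshold. In control kidneys the Fga to Fgb ratio of FPKM was 18.6, 39.9 and 49.9, and with the Wnt1 plasmid it was 8.59, 5.94 and 10.7. All 3 Wnt1 ratios lay below all control ratios, and the mean log2 ratio was 5.06 ± 0.75 in control and 3.03 ± 0.43 with Wnt1 (SD, n = 3; exact permutation test, two-sided, p = 0.1, adjusted over 3 ratios 0.15). The Fgg to Fga ratio was 0.636, 0.561 and 0.322 in control and 1.39, 1.46 and 1.44 with Wnt1, so Fga had more FPKM than Fgg in every control library and less in every Wnt1 library (difference in mean log2 ratio 1.55, exact permutation p = 0.1, adjusted 0.15). This ratio was added after its values were seen. The Fgg to Fgb ratio overlapped between the groups, at 11.8, 22.4 and 16.1 in control and 12.0, 8.66 and 15.3 with Wnt1 (exact permutation p = 0.3, adjusted 0.3). With 3 against 3 libraries the smallest p these tests allow is 0.1, so no ratio could pass 0.05.

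**Figure D2:**
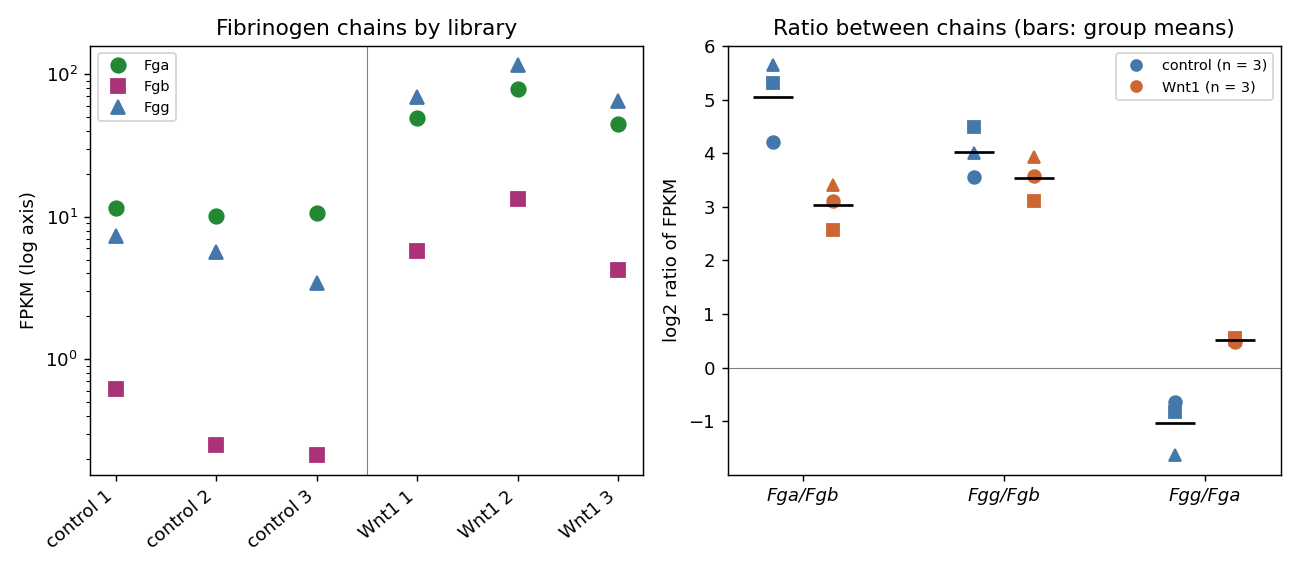
Left, FPKM of Fga, Fgb and Fgg in each library (log axis). Right, log2 ratio of FPKM between chains in each library, with bars at the group means; Fga/Fgb and Fgg/Fga do not overlap between control and Wnt1, while Fgg/Fgb does.

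Fgb had the fewest transcripts per length of the 3 chains in all 6 libraries. This order did not depend on the length used. Per kilobase of coding sequence, Fgb stood at 0.664 to 1.85 CPM in control, against 10.3 to 11.6 for Fga and 5.19 to 10.6 for Fgg. With Wnt1 the values were 9.94 to 29.4 for Fgb, 35.5 to 58.6 for Fga and 73.7 to 123 for Fgg. The order of Fga and Fgg in Wnt1 libraries was also the same on this scale.

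The nearest 2 tested protein-coding genes on each side of the fibrinogen cluster, a rule added after seeing the data, did not share one direction. Plrg1, a splicing factor gene 5.66 kb beyond Fgb, differed by 0.13 ± 0.15 on the log2 scale (edgeR adjusted p = 0.505). Lrat, a retinol-esterifying enzyme gene 104 kb before Fgg, had -1.21 ± 0.51 (adjusted p = 0.0951). Map9, the next tested gene on that side, had 0.41 ± 0.41 (adjusted p = 0.465), and Dchs2, a protocadherin gene on the Fgb side, rose by 3.82 ± 0.85 (adjusted p = 0.00666).

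Serum amyloid A proteins are small apolipoproteins of high density lipoprotein that also attract leukocytes. Saa3, Saa1 and Saa2 lie within 42.3 kb of chromosome 7, at 46711998 to 46715700 and 46740497 to 46742980 on the minus strand and 46751790 to 46754313 on the plus strand. Saa4, a constitutive form, lies between Saa3 and Saa1 (46727998 to 46732603) and was too low to test, with 15 reads in the controls together and 9 with Wnt1. Saa1 and Saa2 are near copies in both the transcript and the promoter, shown here because that bears on how their reads can be divided. The transcripts agree at 572 of 606 aligned bases (94.4%), and 13.2% of all 50-base windows of the Saa1 transcript occur unchanged in Saa2. Their 250-base upstream windows agree at 95.6% of aligned bases, and in both the TTGCNNAA match is in capitals.
Saa1 (chr7:46742981-46743230, minus strand): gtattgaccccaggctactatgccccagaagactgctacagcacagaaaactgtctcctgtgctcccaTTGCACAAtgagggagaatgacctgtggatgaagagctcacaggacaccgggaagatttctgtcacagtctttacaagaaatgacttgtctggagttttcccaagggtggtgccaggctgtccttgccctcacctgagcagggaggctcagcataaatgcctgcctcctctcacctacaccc
Saa2 (chr7:46751583-46751832, plus strand): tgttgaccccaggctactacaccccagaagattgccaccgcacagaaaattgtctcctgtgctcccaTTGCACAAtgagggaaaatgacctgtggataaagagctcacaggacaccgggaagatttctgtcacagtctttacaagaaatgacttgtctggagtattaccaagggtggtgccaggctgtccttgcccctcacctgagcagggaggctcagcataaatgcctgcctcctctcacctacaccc

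Saa3 (ENSMUSG00000040026), the form made by macrophages and other cells outside the liver, was without a read in all 3 controls, and Wnt1 replicates 1, 2 and 3 gave 31, 27 and 29 reads. The Wnt1 libraries agreed closely, at 0.983, 0.956 and 1.10 CPM. Set against 3 counts per control library, the limit that a count of 0 allows, Saa3 was at least 7.45-fold higher (edgeR adjusted p = 0.000642). Its transcript has 76.0% identity with that of Saa1 over the aligned bases and shares 9 of the 560 windows of 50 bases.

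Saa1 (ENSMUSG00000074115), a main circulating form, had 3, 0 and 4 reads in control replicates 1, 2 and 3 and 18, 25 and 25 reads in Wnt1 replicates 1, 2 and 3. Every Wnt1 library exceeded every control library. The log2 fold change was 2.86 ± 0.67 (edgeR adjusted p = 0.00948), and 2.34 without control replicate 2 or 3.55 without control replicate 3. Saa2 (ENSMUSG00000057465), the near copy of Saa1, was at 0 in the 3 controls, and the Wnt1 libraries gave 3, 8 and 1 reads. It was not tested in the filtered fit, its Wnt1 mean of 0.139 CPM was about the level of 3 counts in a control library, and with no filter its edgeR adjusted p was 0.0817. The sources used here do not say how reads common to Saa1 and Saa2 were divided, so the split between these 2 genes is uncertain.

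Next to the Saa cluster, Saal1 (1.32 kb away) differed by 0.23 ± 0.15 on the log2 scale (edgeR adjusted p = 0.266) and Hps5, a lysosome-related organelle gene on the other side, fell (-0.70 ± 0.12; adjusted p = 0.00264). Gtf2h1, a transcription factor subunit gene beyond Hps5, had 0.12 ± 0.34 (adjusted p = 0.813). Tph1, a serotonin synthesis gene beyond Saal1, had no control read and was called higher (adjusted p = 0.00261).

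Cp (ENSMUSG00000003617; chromosome 3, 19957054 to 20009145) encodes ceruloplasmin, the copper-carrying ferroxidase of plasma. It had the highest mean level of the 10 genes in Wnt1 kidneys. Its levels were 46.9, 38.3 and 26.7 CPM in control replicates 1, 2 and 3 and 372, 512 and 161 CPM in Wnt1 replicates 1, 2 and 3. In both groups the library numbered 3 was the lowest. The log2 fold change was 3.22 ± 0.43 (edgeR adjusted p = 0.000912). The end of Cp overlaps Hps3, an organelle gene on the opposite strand, and whether counting used strand is not given. Hps3 was at 39.1 to 41.9 CPM in control and 24.1 to 29.7 CPM with Wnt1.

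Hp (ENSMUSG00000031722; chromosome 8, 109575128 to 109579172) encodes haptoglobin, which captures free haemoglobin. It was at 0.322, 0.842 and 0.685 CPM in control replicates 1, 2 and 3 and at 3.23, 5.03 and 6.34 CPM in Wnt1 replicates 1, 2 and 3. The lowest Wnt1 library stood well above the highest control. The log2 fold change was 2.97 ± 0.41 (edgeR adjusted p = 0.000859).

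Hpx (ENSMUSG00000030895; chromosome 7, 105591613 to 105600137) encodes hemopexin, which carries free haem. It had 2, 0 and 0 reads in control replicates 1, 2 and 3 and 7, 6 and 6 reads in the Wnt1 libraries. The scaled count ratio was 7.30, with an exact 95% interval of 1.76 to 64.7 for counting error only. Hpx was too low for the filtered fit, and with no filter its edgeR adjusted p was 0.0648.

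Lrg1 (ENSMUSG00000037095; chromosome 17, 56119678 to 56122001) encodes a secreted glycoprotein that modulates TGF-beta signalling in endothelium. It was at 2.62, 3.19 and 3.51 CPM in control replicates 1, 2 and 3 and at 13.5, 15.6 and 17.3 CPM in Wnt1 replicates 1, 2 and 3. Both groups were tight. Its log2 fold change of 2.31 ± 0.19 had the smallest edgeR adjusted p of the 8 tested genes (0.000106).

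The genes did not rank the Wnt1 libraries alike. Cp, Fga, Fgb and Fgg were highest in Wnt1 replicate 2 and lowest in Wnt1 replicate 3, the library that stood apart. Hp and Lrg1 were highest in Wnt1 replicate 3. Saa1 (18, 25 and 25 reads in Wnt1 replicates 1, 2 and 3) and Saa3 (31, 27 and 29) had too few reads to rank these libraries. Without both libraries numbered 3 the log2 fold changes were 3.32 for Saa1, 2.80 for Hp and 4.02 for Fgb. Cp, Lrg1, Fga, Fgb and Fgg were still called higher there, where 4664 of 14563 genes were called higher. Saa1, Saa3 and Hp were called higher too, but the filter had fixed their direction.

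**Figure D3:**
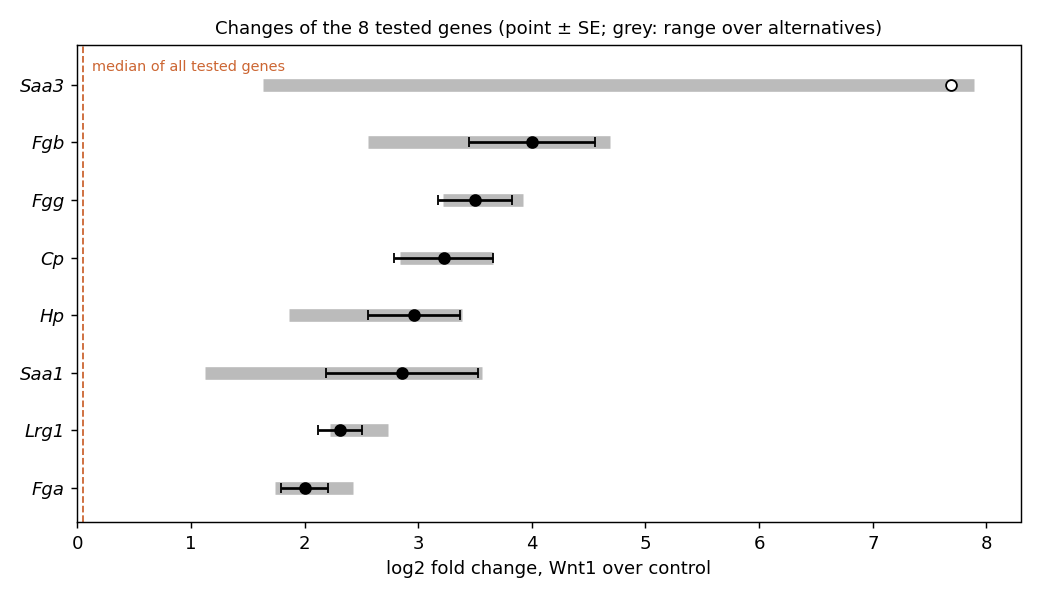
Log2 fold change, Wnt1 over control, of the 8 tested genes (points, edgeR; bars, SE; open point, Saa3, which has no SE because no control library had a read). Grey bands span the alternatives of scaling, filter, tool and left-out library. All lie above the median of all tested genes (dashed line), though the filter fixed the direction of Saa1, Saa3 and Hp. The low ends for Saa3, Fgb, Hp and Saa1 come from log2(FPKM + 1).

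Likeness was measured as the root mean square difference of log2 CPM over the 6 libraries, after each gene's own mean was subtracted, among 12558 genes. The gene nearest to Lrg1 was Rgs19 (difference 0.0402), and the nearest to Cp was Gpr34 (0.123). The nearest to Saa3 was Serpina10 (0.131), to Fga Epha7 (0.137), to Fgg Dclk1 (0.205), to Hp Tnfrsf4 (0.235), to Fgb C6 (0.252) and to Saa1 Relt (0.347). Among the 8 tested genes themselves, Fgb was nearest to Fgg (0.421), with 5 genes of the table nearer to it. Fgg was nearest to Cp (0.415) and Fga to Lrg1 (0.342). For the 7 genes besides Fgb, 47 to 386 genes of the table were nearer than any of the 8.

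Other acute phase genes were mixed. A list of 35 further genes counted as positive acute phase proteins, the constitutive Saa4 among them, held 24 tested genes. Of these 24, 15 were higher and 3 lower, with a median log2 fold change of 1.40 against 0.05 over all tested genes. Some of the higher genes, such as Serpina3n, Itih4 and Il1rn, passed the filter only through the Wnt1 libraries, which fixed their direction. The rises with the smallest p were C3, the central complement component, at 6.0 ± 0.16, Lcn2, the iron-siderophore carrier lipocalin, at 6.22 ± 0.24, and the serine protease inhibitor genes Serpina3n (7.63 ± 0.31) and Serpina3g (3.52 ± 0.15). Serpina1d and Serpina1c, copies of the alpha-1 antitrypsin family that can share reads, fell by 2.95 ± 0.34 and 2.69 ± 0.39. Over these 6 genes the edgeR adjusted p ran between 4.94e-06 and 0.00112. A further pair of copies, named after their values were seen, went otherwise: Serpina1b was higher by 0.76 ± 0.20 (adjusted p = 0.019) and Serpina1a was at 102 ± 9.77 and 108 ± 35.1 CPM (adjusted p = 0.81). How reads were divided among these copies is not known here, so the direction of each copy is uncertain. Apcs, serum amyloid P component, was also called lower and is named after its values were seen. It had 77 reads in the controls together and 20 with Wnt1 (edgeR adjusted p = 0.00383). It passed the filter only through the control libraries, which fixed its direction. Some reactants known from liver had few reads, and they too are named after their values were seen. Orm1, Orm2 and Orm3 (alpha-1 acid glycoprotein) had 0, 0 and 1 reads in the controls together and 1, 10 and 0 with Wnt1, and Hamp (hepcidin) had none. Crp, C-reactive protein, had 3 and 19 reads, a scaled ratio of 4.87 (exact 95% interval 1.43 to 25.7, counting error only). Other liver-type reactants were higher, such as Lbp, which binds lipopolysaccharide, from 8.3 ± 0.686 to 29.1 ± 8.52 CPM (edgeR adjusted p = 0.000575).

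Of 11 genes known to fall in the acute phase, 10 were tested, and 4 were lower and 3 higher (median -0.39). That median was -0.96 without Wnt1 replicate 3, -0.07 without Wnt1 replicate 2 and 0.17 with the stricter filter. Alb, albumin, fell from 9.39 ± 1.55 to 1.47 ± 0.716 CPM, and Apoa1, the main protein of high density lipoprotein, fell by 1.91 ± 0.39 on the log2 scale. Trf, the iron carrier transferrin, rose by 2.15 ± 0.21, and Serpina6, corticosteroid-binding globulin, had no control read and was at least 19.3-fold higher. These calls had edgeR adjusted p between 0.000175 and 0.00561.

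Hepatocyte markers did not rise with the acute phase genes. Of 18 hepatocyte markers, 10 were tested, 0 were higher and 7 lower. Their summed level was 237 to 409 CPM in control and 201 to 282 CPM with Wnt1. Mup3, Mup20 and Cyp7a1 were at 0 in all 6 libraries, and Ahsg, Tat and Cps1 had 2, 5 and 3 reads in all Wnt1 libraries together. These are named after their values were seen, as is Serpina1a of the same list, at 102 ± 9.77 CPM in control and 108 ± 35.1 CPM with Wnt1. The largest log2 fold change in the list was 1.12, not called. Alb, Apoa2, Ahsg, F2, Serpina1a and Serpina1c are also in other lists described here.

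Markers of other kidney and immune cells also moved with the groups. Macrophage markers were higher for 14 of 14, with a summed level of 248 to 300 CPM in control and 2070 to 2502 CPM with Wnt1. Neutrophil markers were higher for 5 of 6 tested of 13, and their sum went from between 2.92 and 3.97 CPM to between 20.2 and 29.6 CPM, with Camp at 0. At such low control levels, any of these that passed the filter only through the Wnt1 libraries had a direction fixed by it. How many did so was not counted. Markers of injured tubule were higher for 16 of 16, and their sum went from between 1663 and 1949 CPM to between 14882 and 22683 CPM. Among them, Lcn2 is also in the list of other acute phase genes and Anxa2 in the fibrin list. Proximal tubule markers, which define the labelled tissue and were abundant in control, were lower for 14 of 15, from a sum between 44225 and 52020 CPM to one between 6986 and 10842 CPM. The part of these cells in the rise of the 10 genes was not tested. Adipocyte markers were higher for 0 of 6 tested and lower for 4, and erythroid markers were higher for 0 of 6 tested, with sums of 127 to 519 CPM in control and 109 to 494 CPM with Wnt1. Endothelial markers were lower for 7 of 11, and fibroblast and mural markers higher for 10 of 11.

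Genes of the signal that drives the acute phase were mostly higher. Of 27 genes, 25 were tested, 19 were higher and 1 lower (median 1.18). Some of the higher genes, such as Lif, Tnf, Osm and Il11, passed the filter only through the Wnt1 libraries, which fixed their direction. Socs3, the feedback inhibitor that STAT3 induces, rose from 3.81 ± 0.297 to 55.5 ± 9.69 CPM (3.86 ± 0.19). The interleukin-6 family cytokines Lif and Clcf1 rose by 5.03 ± 0.33 and 2.99 ± 0.20, and Tnf, an inflammatory cytokine, by 4.22 ± 0.39. Osmr, the oncostatin M receptor, rose by 3.05 ± 0.28 and Stat3 by 1.17 ± 0.12. These had edgeR adjusted p between 2.22e-05 and 0.000225.

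Il6 itself was low, with 2 reads in the controls together and 17 with Wnt1, a scaled ratio of 6.53 (exact 95% interval 1.55 to 58.3, counting error only), and it was not tested. Osm, encoding oncostatin M, had 3 and 54 reads, a ratio of 13.8 (4.49 to 69.2), and its log2 fold change of 3.66 ± 0.66 (edgeR adjusted p = 0.00266) was 4.62 without control replicate 3. Il6ra, the interleukin-6 receptor, rose by 1.37 ± 0.22 (edgeR adjusted p = 0.0019), and Il11ra1, the interleukin-11 receptor, fell by 0.86 ± 0.18 (adjusted p = 0.00621). Il6st, the shared signal-transducing chain gp130, was at 258 ± 4.36 and 323 ± 28.3 CPM (0.32 ± 0.12; edgeR adjusted p = 0.0629, but 0.00115 with library totals and 0.0229 with upper-quartile factors).

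Hepatocyte-type nuclear factors were mostly lower or not called. Of 10 genes, 7 were tested, 0 were higher and 4 lower (median -0.86). Hnf4a fell by 1.23 ± 0.13 (edgeR adjusted p = 0.00028) and Nr1h4, the bile acid receptor, by 1.13 ± 0.20 (adjusted p = 0.00312). With library totals 3 of the list were lower and 2 higher, and without Wnt1 replicate 2 there was 1 higher. The median turned to 0.08 with no filter on low counts.

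Genes that make and dissolve fibrin moved in both directions. Of 27 genes, 25 were tested, 11 were higher and 7 lower (median 0.70), where 22.4% of all tested genes were called higher and 18.7% lower. F13a1, a subunit of the clot-linking factor XIII, rose by 4.38 ± 0.36. Anxa2 and S100a10, which form a plasminogen receptor, rose by 2.02 ± 0.21 and 1.21 ± 0.13. Plat, tissue plasminogen activator, rose by 1.07 ± 0.12. Serpinf2, the plasmin inhibitor alpha-2 antiplasmin, fell from 397 ± 73.8 to 59.6 ± 15.2 CPM. Over these 5 genes the edgeR adjusted p ran between 0.000105 and 0.000406. F13b, the other factor XIII subunit, went the other way and is named after its values were seen. It fell from 159 ± 36.2 to 24.0 ± 8.72 CPM (edgeR adjusted p = 0.000373).

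Hrg, histidine-rich glycoprotein, fell by 5.77 ± 0.62 on the log2 scale (edgeR adjusted p = 0.000271), and the value was -7.32 once Wnt1 replicate 3 was left out. Plau, urokinase, fell by 0.51 ± 0.14 (adjusted p = 0.0184), but its log2 fold change was -0.09 (adjusted p = 0.549) with library totals, and its call was lost without control replicate 1 (adjusted p = 0.0711) or Wnt1 replicate 1 (0.0738). Plg, plasminogen, was too low to test, with 28 reads in control and 9 with Wnt1. F2, prothrombin, the precursor of the enzyme that cleaves fibrinogen, had 78 reads in the controls together and 0 with Wnt1, and is named after its values were seen.

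Receptors for fibrinogen rose for 9 of 11 tested of 12, with 1 lower (median 1.60). Without control replicate 3 or without Wnt1 replicate 1 the higher calls were 6, and without Wnt1 replicate 3 the lower calls were 2. Itgam and Itgb2, the leukocyte integrin Mac-1 that binds fibrin, rose by 4.69 ± 0.24 and 2.41 ± 0.20. Itgax, its relative on myeloid cells, rose by 2.42 ± 0.23 and Icam1, an adhesion molecule that fibrinogen bridges to, by 1.70 ± 0.13. Itga2b, the platelet fibrinogen receptor chain, fell by 1.33 ± 0.28. Their edgeR adjusted p lay between 2.68e-05 and 0.0068. Itgam is also 1 of the 14 macrophage markers.

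Receptors reported to bind serum amyloid A were higher for 8 of 9, all tested, with 1 lower (median 2.37). The summed level of the list went the other way, at 283 to 372 CPM in control and 235 to 274 CPM with Wnt1. Cd14, also a macrophage marker, rose by 3.08 ± 0.16, Tlr2 by 2.93 ± 0.20 and P2rx7 by 2.09 ± 0.19, and Fpr2, a formyl peptide receptor, by 3.57 ± 0.48 (4.33 without control replicate 3). Fpr1, the other formyl peptide receptor, had 2 control reads and a scaled ratio of 45.0 (exact 95% interval 12.2 to 376, counting error only). Cd36, a scavenger receptor, fell by 1.59 ± 0.26. The edgeR adjusted p of these 6 genes was at most 0.00209.

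Genes that handle haemoglobin, haem, copper and iron were split, with 8 higher and 7 lower of 22 tested of 23 (median -0.14). Over all tested genes 22.4% were called higher and 18.7% lower. Cd163, the macrophage receptor for haptoglobin with haemoglobin, rose from 0.212 ± 0.0299 to 3.02 ± 1.17 CPM, and Lrp1, the receptor for hemopexin with haem, rose by 1.36 ± 0.19. Heph, a membrane ferroxidase related to ceruloplasmin, rose by 1.25 ± 0.19. Cubn and Lrp2, the endocytic receptors of the proximal tubule, fell by 1.35 ± 0.13 and 1.52 ± 0.15. These calls had edgeR adjusted p between 0.000164 and 0.0014.

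Slc40a1, the iron exporter ferroportin that works with ceruloplasmin, rose by 0.57 ± 0.16 (edgeR adjusted p = 0.0239), and Hmox1, haem oxygenase, by 0.55 ± 0.17 (adjusted p = 0.0313). Without Wnt1 replicate 2 their adjusted p was 0.0799 and 0.107, and without control replicate 2 it was 0.0537 and 0.0797; for Hmox1 it was 0.0832 without control replicate 1. The list had 5 higher without Wnt1 replicate 2 and 11 lower without Wnt1 replicate 3.

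Partners of LRG1 in TGF-beta signalling gave 5 higher and 0 lower of 9, all tested (median 0.65). Tgfbr2, the type II receptor, rose by 1.05 ± 0.15, Tgfb1, the ligand, by 1.26 ± 0.19, the signal transducer Smad1 by 0.65 ± 0.13 and Id3, a target of BMP signalling, by 0.70 ± 0.19 (edgeR adjusted p 0.000973 to 0.0197). Eng, the endothelial co-receptor endoglin that LRG1 binds, was at 183 ± 32.5 and 140 ± 41.6 CPM (adjusted p = 0.211, and without Wnt1 replicate 3 it was 0.0125, the log2 fold change then being -0.66).

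**Figure D4:**
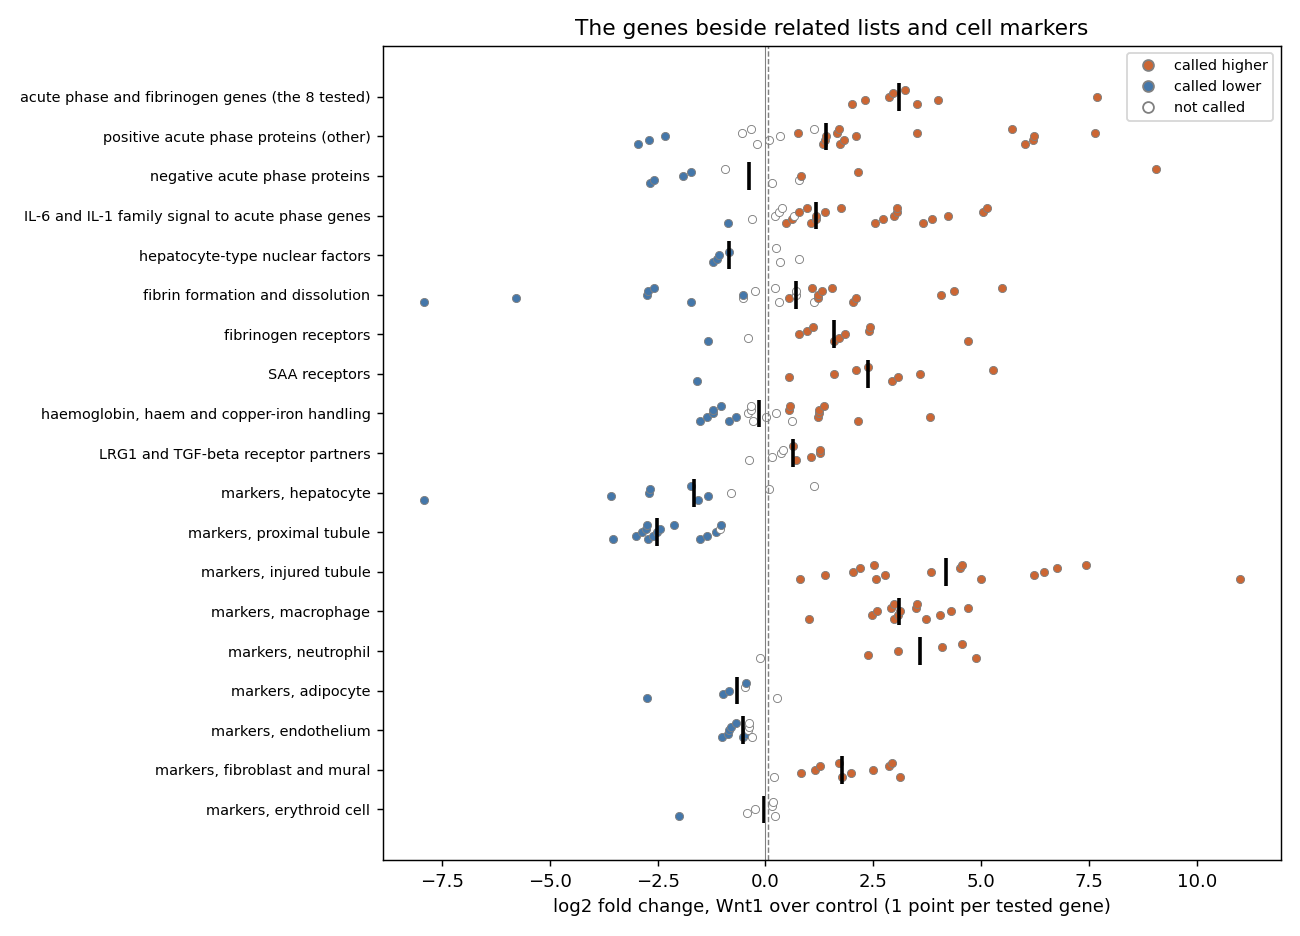
Log2 fold change, Wnt1 over control, of every tested gene in each list (orange, called higher; blue, called lower; open, not called; black bar, list median; dashed line, median of all tested genes). Cp, Lrg1, Fga, Fgb and Fgg all lie at or above 2.0, while hepatocyte and proximal tubule markers have medians of -1.65 and -2.51. Saa1, Saa3 and Hp lie above 2.0 too, but the filter fixed their direction.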

How the data were processed

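Messenger RNA of mouse kidney was measured in 3 control and 3 Wnt1 libraries. Per the labels' protocols, RNA was enriched on oligo(dT) beads and prepared with a NEBNext Ultra kit. The submitters' processing notes list the build mm10 and the tools RSEM, HISAT2, StringTie 1.3.1, Bowtie2 2.2.8 and fastp 0.18.0. The sources used here do not give the role of each tool, the annotation or any use of strand. The authors deposited expected counts and FPKM for each gene and library. Of the expected counts, 9.02% were not whole (tolerance 1e-06), and all were rounded.

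The count test was edgeR 4.0.16 (R 4.3.3): filterByExpr, TMM factors, the robust quasi-likelihood test, two-sided, and Benjamini-Hochberg adjustment over 14432 genes. The SE comes from the unshrunken coefficient and the F statistic. Intervals and floors cover counting error only. Gene positions come from GENCODE M21 on GRCm38, the assembly mm10 names, and promoters from RefSeq. The fit was tested on simulated data.

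The alternatives were DESeq2 1.42.0, other scaling factors, other filters, limma 3.58.1 on log2 FPKM, voom with quality weights, and leaving out libraries. The genes and lists were chosen with earlier results of these data known. All 10 genes are named whatever their values; from each list, the called genes with the smallest p (up to 4 in the commoner direction and 2 in the other) and fixed partners of the 10 genes. Some genes that this rule names are not reported here, though the list counts include them.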

Additional observations from a re-analysis of the deposited data

How the results depend on the processing

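Cp, Lrg1, Fga, Fgb and Fgg kept their direction and their call in all 17 alternatives. Saa1, Saa3 and Hp did so too wherever they were tested, but they passed the filter only through the Wnt1 libraries. That fixed their direction, so they are not counted as support. The stricter filter, which asks for 1 CPM throughout a group of 3 libraries, removed Saa1 and left 7 of the 8 tested genes called. With limma on log2(FPKM + 1) and no filter, 9 were called, Hpx being the ninth, where 5949 of 17996 genes were called higher. Hpx rests on few reads and was not called by edgeR with no filter (adjusted p = 0.0648) or by DESeq2 (adjusted p = 0.158). On the log2(FPKM + 1) scale the changes of low genes are smaller by construction: 1.13 for Saa1, 1.64 for Saa3, 1.87 for Hp and 2.56 for Fgb. Genes called over the related lists numbered 76 higher and 27 lower, with 66 to 94 higher and 20 to 36 lower over the alternatives. The calls over all tested genes moved as well. They were 3239 higher and 2697 lower of 14432 in the main fit, 6348 and 1288 with library totals, and 4612 and 4430 with voom. The ranges of the lists are therefore not a measure of their stability alone. Other acute phase genes called lower were 3, and 5 with DESeq2. For 57 other genes examined, Hps3 among them, 918 of 954 values kept the side of the threshold, 23 lost a call and 13 gained one, and none turned direction while called; the cause was not tested.

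The difference in log2 Fga/Fgb ratio lay between -2.45 and -1.65, that in Fgg/Fga between 1.25 and 1.75 and that in Fgg/Fgb between -0.70 and -0.11 over 10 alternatives each, 2 of them (coding length, and without both libraries numbered 3) chosen after seeing the data. No paired analysis was possible because replicate numbers were given in the order of the records and pair nothing. Depth limits Saa1, Saa2, Saa3 and Hpx, which rest on few reads.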
